A study of Mus musculus with 6 samples.

Results

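Transcripts of calcineurin, NFAT and CaMKII signalling were compared between 2 skeletal muscles of the mouse. The genes were Ppp3ca, Ppp3cb, Rcan1, Nfatc1, Nfatc4, Camk2a, Camk2b, Camk2g and Calm3, and all probe sets whose only platform gene symbol was one of these 9 were taken. They came to 17 probe sets of 8 genes among the 22626 non-control probe sets of the array. No probe set carried the symbol Calm3, which encodes a calmodulin and is not analysed here. The groups were the adult superficial masseter, a jaw-closing muscle, and the adult tibialis anterior, a limb muscle of the lower leg. Both came from normal female C57Bl/6 mice aged 6 months, with no treatment named, and each muscle had 3 samples on 1 short-oligonucleotide array each. The question was how gene expression of a chewing muscle compares with that of a limb muscle. Whether the samples within a muscle are from separate mice is not given in the sources used here, so the p-values measure the spread between these samples, some or all of which may be technical.

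Calcium entering the cytosol binds calmodulin, and calcium-loaded calmodulin activates the phosphatase calcineurin and the CaM-dependent kinases. Calcineurin removes phosphates from the cytosolic NFAT transcription factors, which then enter the nucleus. In skeletal muscle this route is known for promoting the slow, oxidative fibre programme, while CaMKII reads out the frequency of calcium pulses. Much of the control of all these proteins is by calcium and phosphorylation, which an array of transcripts does not measure.

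Rcan1, an inhibitor of calcineurin whose own gene responds to it, has alternative first exons with separate promoters. The RefSeq promoter table (build GRCm38.p6) holds 2 start sites for it, and 4 further members have an entry there. The 250 bases before each Rcan1 start are shown because Rcan1 had the smallest p of all members and because NFAT acts on 1 of its promoters. Both windows are on the minus strand and are printed 5′ to 3′. Capitals mark the NFAT core, GGAAA on either strand. The upstream window is chr16:92466170-92466419 and the internal one chr16:92400079-92400328.
Rcan1 upstream start: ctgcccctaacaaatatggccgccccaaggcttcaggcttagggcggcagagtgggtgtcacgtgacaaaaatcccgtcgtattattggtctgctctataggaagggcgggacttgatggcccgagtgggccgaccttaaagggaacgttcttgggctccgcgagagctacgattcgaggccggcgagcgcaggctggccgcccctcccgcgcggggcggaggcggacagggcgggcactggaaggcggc
Rcan1 internal start: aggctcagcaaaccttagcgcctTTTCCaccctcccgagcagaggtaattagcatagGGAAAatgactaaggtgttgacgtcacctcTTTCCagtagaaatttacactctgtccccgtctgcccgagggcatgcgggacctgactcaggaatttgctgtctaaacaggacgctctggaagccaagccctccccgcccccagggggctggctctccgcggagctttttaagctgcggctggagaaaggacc
The upstream window held 0 cores and the internal window 3, which began 227, 193 and 163 bases before the start. Of 32851 promoter windows of the same length, 55.6% held at least 1 core and 6.39% held 3 or more. The internal window also held 1 AP-1 element (TGANTCA, either strand), found in 6.75% of windows, and the upstream window held 1 E-box (CACGTG, the same on both strands), found in 6.02%. None of these matches overlapped another. They are matches of letters only, and the files do not say which of the Rcan1 transcripts a probe set reads.

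The deposited values are linear signal intensities, scaled by the authors so that the 2% trimmed mean was 150.1 on every array. A probe set was tested when its mean log2 signal over the 6 arrays reached the 40th percentile, a signal of 28.6. This kept 12 of the 17 member probe sets, representing 7 of the 9 genes. The 5 left out, which stay in the description, were the probe set of Camk2a, 1 of the 2 of Rcan1 and 3 of the 4 of Nfatc4. Precision is limited by the small number of arrays. A difference is the mean log2 signal of the masseter less that of the tibialis anterior, followed by the standard error (SE) from limma, n = 3 per muscle, with the replicate numbers as a block. Adjusted p-values are limma's with Benjamini-Hochberg adjustment over all 13576 probe sets tested.

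The skeletal muscle identity of the samples was plain. The summed signal of 10 fibre markers ran from 77514 to 97273 for masseter samples and from 98942 to 101094 for tibialis samples, with the lowest sum in masseter 1. Of these 10 genes 0 passed. Des (mean signal 3279 against 2547), Ryr1 and, by very little, Ttn had higher masseter means, and the others had lower ones. Salivary gland markers were high in some masseter samples. Their sum over 9 probe sets was 62778, 8028 and 3288 in masseter 1, 2 and 3, and 2483 to 5909 in the tibialis anterior. Of 7 salivary genes tested 3 passed, all higher in the masseter. Smr2 was the only tested gene of the list with a lower masseter mean (1365 against 2134). It had the largest signal of the list in masseter 3 (2123) and in tibialis anterior 1, 2 and 3 (2548, 2063 and 1848.5), so it led those sums. Like the fibre sum, the sums of nerve and Schwann cell markers (given with the CaMKII genes), adipocyte markers and smooth muscle and pericyte markers did not overlap between the muscles. They were, for 6 adipocyte markers, 7858 to 10836 against 16750 to 21747, and, for 7 smooth muscle and pericyte markers, 4353 to 5253 against 5858 to 7422, where 2 of 5 and 0 of 7 tested genes passed. The latter sum was led by Rgs5 (mean signal 2609 against 3537) and Acta2 (1337 against 1850), and Tagln and Pdgfrb also had lower masseter means. Smtn (258 against 141), Myh11 and Cnn1 had higher means in the masseter. Car3, a carbonic anhydrase that muscle fibres also make, had a mean signal of 3953 against 14675. It was the only tested gene of the adipocyte list with a lower masseter mean, so the lower masseter sum came from it. The adipokine Adipoq was the other that passed and was higher in the masseter (332 against 138). Fabp4 (4361 against 3609), Cidec and Retn also had higher masseter means. The part of these cells in the members' values was not tested. The ratio of 3′ to 5′ signal of the Gapdh control, a sign of RNA integrity and labelling, was 2.46 to 2.92 for masseter and 1.87 to 2.07 for tibialis samples (exact permutation p = 0.1, two-sided, the smallest that 3 against 3 allows). The groups do not overlap in the Gapdh ratio, so it moved with every difference between the muscles, and its part in them was not tested. The same ratio of the Actb control was 2.71 to 3.34 for masseter and 2.59 to 2.79 for tibialis samples. Here the groups overlapped (exact permutation p = 0.3, two-sided). In such bulk samples fewer cells of a type and less RNA per cell cannot be told apart.

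None of the 12 member probe sets passed the threshold of 0.05 on the adjusted p in the comparison of the muscles. Over all probe sets 1.18% passed, 0.619% lower and 0.56% higher in the masseter. Rcan1, Camk2b, 1 probe set of Camk2g and all 3 of Ppp3ca had lower mean signal in the masseter at an unadjusted p under 0.05, and 1 probe set of Ppp3cb had higher signal there. These are 7 of 12 probe sets, against 13.1% of all probe sets by the same unadjusted rule (6.12% lower and 6.93% higher), and 3 of the 7 read the same gene. Paired SAM, the test named in the study's design text, called 0 of the 12 at an estimated false discovery rate under 0.05, with 0.479% of all probe sets called. The median difference was -0.34 over the 12 and 0.02 over all probe sets tested.

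**Figure D1:**
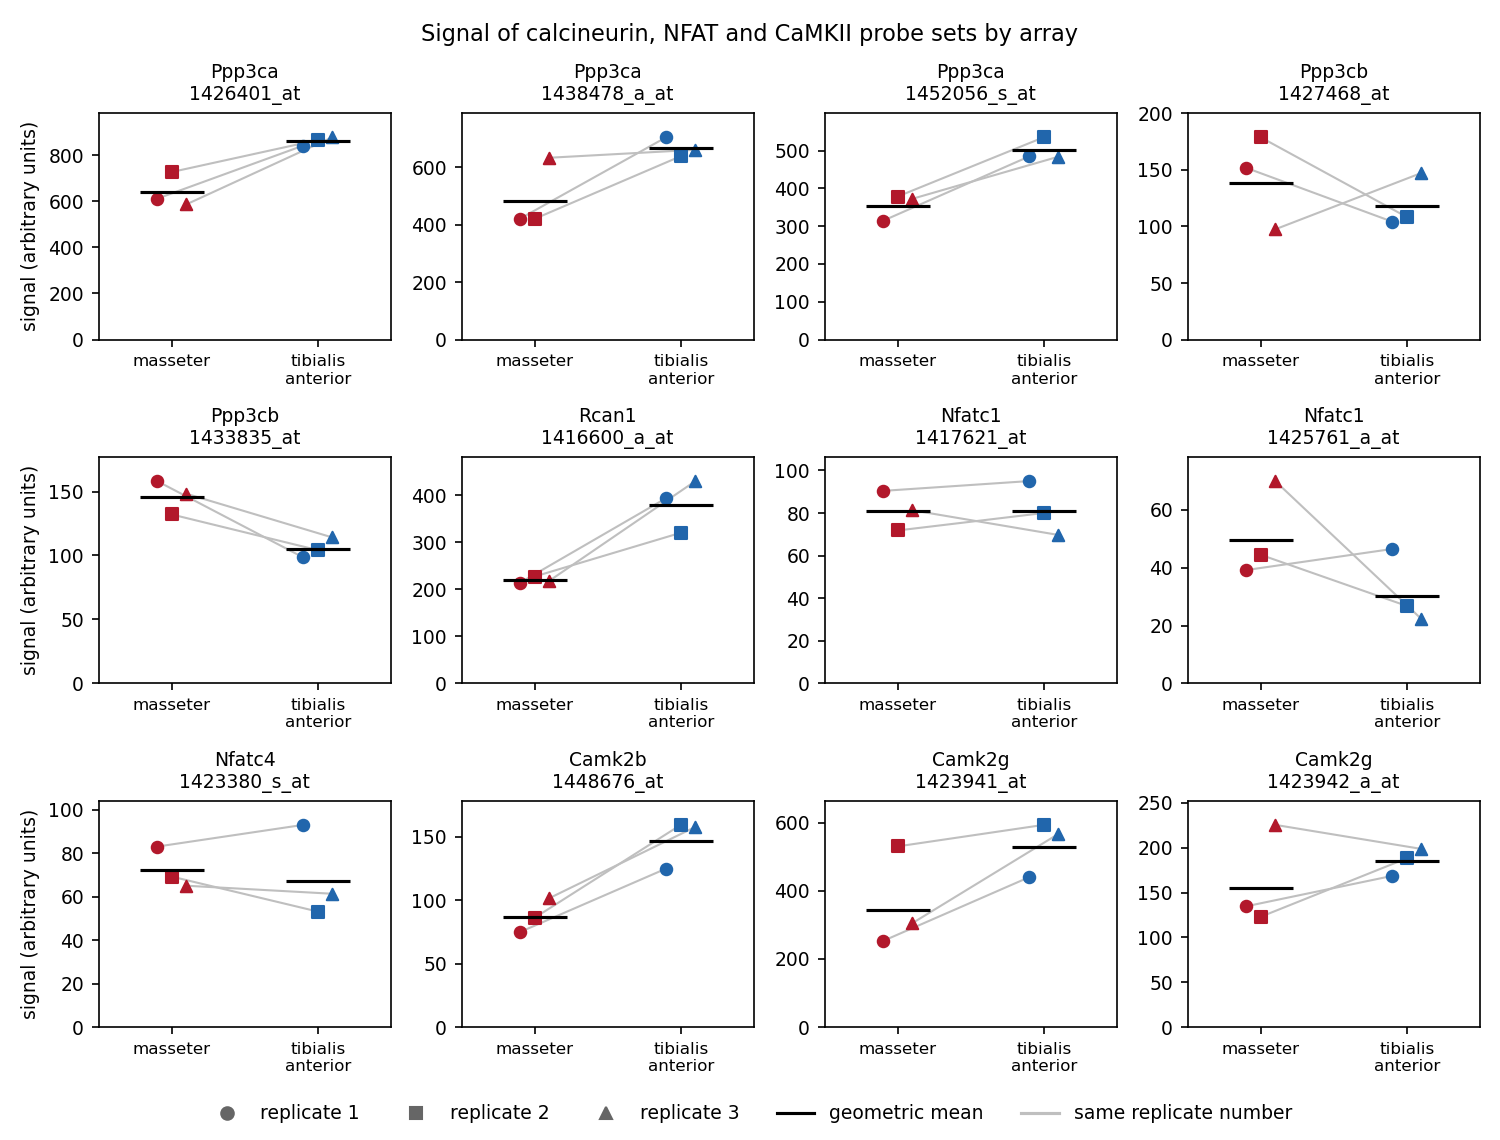
Signal intensity (arbitrary units, linear axis from 0) of the 12 tested probe sets in each of the 6 arrays. Red symbols are masseter, blue symbols tibialis anterior, shapes are replicate numbers, grey lines join equal numbers and black bars are geometric means. The 3 Rcan1 values of the masseter lie between 213.9 and 227.1 and those of the tibialis anterior between 320.0 and 429.9.

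Ppp3ca encodes the alpha isoform of the catalytic subunit of calcineurin. Its brightest probe set (1426401_at) had signals of 611.2, 727.1 and 586.6 in masseter 1, 2 and 3 and of 841.7, 866.0 and 877.9 in tibialis anterior 1, 2 and 3. All 3 masseter values lay under all 3 tibialis values, and the difference was -0.43 ± 0.14 (SE), or 1.35-fold, with an adjusted p of 0.246. The second probe set (1438478_a_at) had 421.2, 420.5 and 633.2 in the masseter and 704.5, 638.6 and 660.9 in the tibialis anterior. Here masseter 3 came close to the tibialis values without reaching them, and the difference was -0.47 ± 0.17 (adjusted p = 0.298). The third (1452056_s_at) had 314.2, 378.4 and 372.3 against 484.4, 535.1 and 483.7, again without overlap, and a difference of -0.50 ± 0.15 (adjusted p = 0.201). The estimates of the 3 probe sets thus ran from -0.50 to -0.43, all below 0 in all 3 numbered pairs, but they read transcripts of 1 gene in the same RNA and are not separate evidence. None passed the test.

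Ppp3cb encodes the beta isoform of the same subunit, and its estimates lay on the other side of 0. Probe set 1433835_at had signals of 158.2, 132.1 and 148.3 in masseter 1, 2 and 3 and of 98.5, 104.2 and 114.1 in tibialis anterior 1, 2 and 3. The masseter values were all above the tibialis values, with a difference of 0.47 ± 0.19 and an adjusted p of 0.35, so it did not pass. The other probe set (1427468_at) had 151.9, 178.9 and 97.5 against 104.3, 108.4 and 147.3, and the groups overlapped because masseter 3 was low and tibialis anterior 3 high. Its difference was 0.22 ± 0.27 (95% interval -0.40 to 0.85, adjusted p = 0.799), and without replicate 2 it was -0.03. The 95% intervals of Ppp3ca lay below 0 for all its probe sets, and that of 1433835_at from 0.03 to 0.91. Whether the 2 isoforms differ in their response to muscle was not tested.

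Rcan1 was the member with the smallest p. Its tested probe set (1416600_a_at) had signals of 213.9, 227.1 and 217.9 in masseter 1, 2 and 3 and of 393.6, 320.0 and 429.9 in tibialis anterior 1, 2 and 3. The masseter values were tightly grouped, with an SD of 0.04 on the log2 scale against 0.22 in the tibialis anterior, and the groups did not overlap. The difference was -0.78 ± 0.17 (95% interval -1.18 to -0.39), the tibialis mean being 1.72 times that of the masseter, and the adjusted p was 0.0886. By unadjusted p it ranked 270 of 13576. In 17 alternative settings the estimate stayed between -0.93 and -0.69. It passed in 1 of them, the fit on gene means over all named genes, which was added after the data were seen (adjusted p = 0.0498, where 1.98% of genes passed), and its adjusted p ran up to 0.292 in the others. Without masseter 1, the array with the strong salivary signal, the difference was -0.77 in a limma fit without the block (adjusted p = 0.146). The same fit on all 6 arrays gave an adjusted p of 0.0635. Masseter 2, with a salivary sum of 8028, stayed in both fits. The other probe set of Rcan1 (1416601_a_at) had signals of 3.5 to 8.6 on all 6 arrays, under the filter level, and says nothing of a difference.

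**Figure D2:**
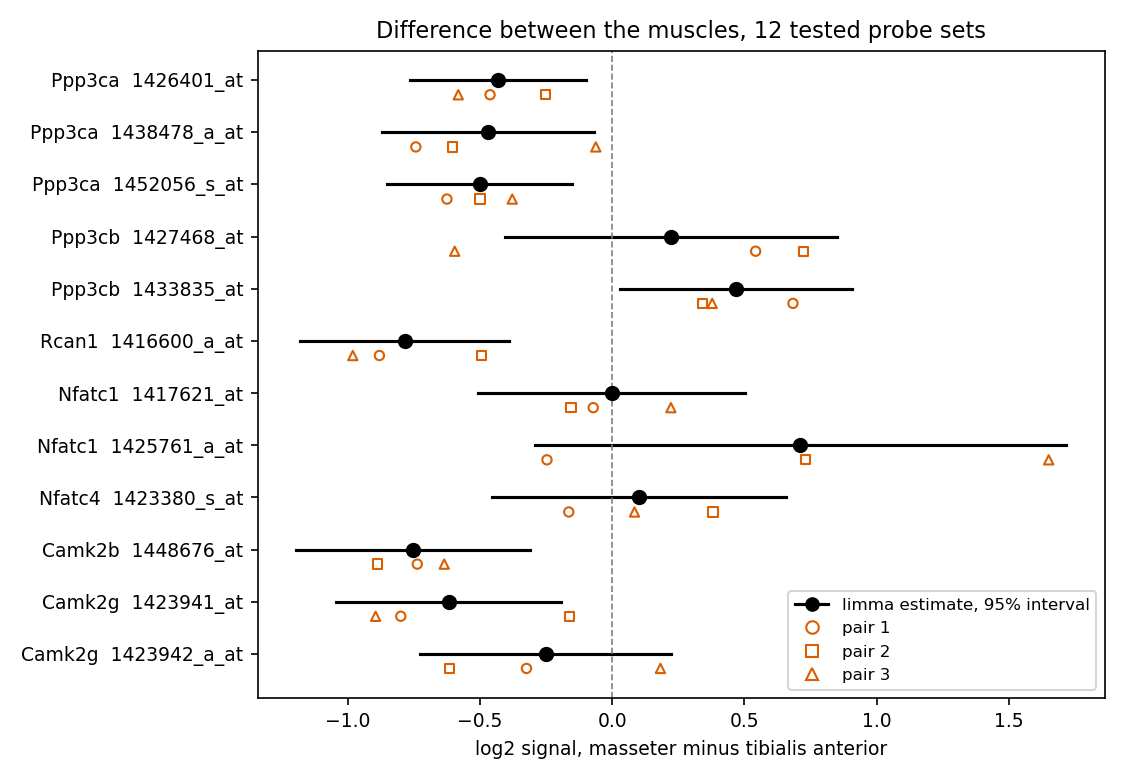
Difference in log2 signal, masseter minus tibialis anterior, for the 12 tested probe sets. Black points and bars are limma's estimates with 95% intervals, and open symbols are the differences within the 3 numbered pairs. All 3 Ppp3ca probe sets, Rcan1, Camk2b and 1 Camk2g probe set have intervals below 0, 1 Ppp3cb probe set has its interval above 0, and none passed after adjustment over all probe sets.

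The NFAT factors showed no difference that the arrays could resolve. Nfatc1, the family member best known in slow and regenerating fibres, had signals of 90.4, 71.8 and 81.3 in masseter 1, 2 and 3 and of 95, 80.0 and 69.7 in tibialis anterior 1, 2 and 3 on its brighter probe set (1417621_at). The groups were interleaved, and the estimate was 0.00 ± 0.22 with a 95% interval from -0.51 to 0.50 (adjusted p = 0.998). The sign of this estimate changed in 4 of 16 alternatives. On its dimmer probe set (1425761_a_at) the signals were 39.2, 44.5 and 70.0 against 46.5, 26.8 and 22.3. Here 2 tibialis arrays lay under the filter level, the estimate was 0.71 ± 0.44 and the interval ran from -0.29 to 1.72 (adjusted p = 0.56). Within the numbered pairs that probe set gave -0.25, 0.73 and 1.65, so the estimate depended on replicate 3, without which it was 0.24. Nfatc4, another calcineurin-regulated factor, had signals of 83.1, 69.3 and 65.1 against 93.1, 53.2 and 61.4 on the tested probe set (1423380_s_at). The difference was 0.10 ± 0.24 (95% interval -0.45 to 0.66, adjusted p = 0.91). Its 3 other probe sets had mean signals of 1.84 to 14.9 for the masseter and 2.43 to 29.9 for the tibialis anterior and were not tested.

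Among the CaMKII subunits, which assemble into the multimeric kinase, Camk2b had the largest estimate. Camk2b encodes the beta subunit, and its only probe set (1448676_at) had signals of 74.9, 86.1 and 101.5 in masseter 1, 2 and 3 and of 124.8, 159.2 and 157.6 in tibialis anterior 1, 2 and 3. The groups did not overlap, and the 3 pairs gave -0.74, -0.89 and -0.64. The difference was -0.75 ± 0.19 (95% interval -1.19 to -0.31), the tibialis mean being 1.68 times that of the masseter, and the adjusted p was 0.13. It kept its sign in 17 of 17 alternatives and passed in 0 of them.

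Camk2g, the gamma subunit, was read by 2 probe sets. The brighter (1423941_at) had signals of 252.7, 530.0 and 304.8 against 439.7, 593.1 and 566.5. Masseter 2 reached into the tibialis range while the other masseter arrays lay below it, and the difference was -0.62 ± 0.19 (adjusted p = 0.198). It rested in part on the array left out, at -0.40 without masseter 1 and -0.93 without masseter 2 in fits without the block. The dimmer probe set (1423942_a_at) had 134.7, 123.0 and 225.5 against 168.6, 188.2 and 198.7, with masseter 3 the highest of the 6. Its difference was -0.25 ± 0.21 (95% interval -0.73 to 0.22, adjusted p = 0.679), and this too depended on single arrays. Without the block it was -0.15, -0.08 and -0.52 with masseter 1, 2 or 3 left out.

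Camk2a, the alpha subunit and the main form of forebrain neurons, had signals of 1.0, 4.3 and 2.5 in masseter and 3.5, 1.1 and 1.1 in tibialis samples. All 6 were under the filter level, so no fold is given. Of 7 neuronal markers with a probe set 3 were bright enough to be tested and 0 passed. The sum of the 7 was 192 to 314 in masseter and 225 to 268 in tibialis samples. Gria2 and Stmn2 had mean signals of 75.7 and 66.7 in masseter and of 81.7 and 73.2 in tibialis samples. The synaptic gene Snap25 was at 0.3 to 7.4. Nerve and Schwann cell markers had a higher summed signal in the masseter. Their sum over 9 probe sets was 1243 to 1369 there and 810 to 951 in the tibialis anterior, led by the myelin genes Mbp and Pmp22. Of the 6 tested 0 passed singly. Mbp, Pmp22, S100b, Cnp and Mag had higher means in the masseter, while Sox10 had a lower one (52.6 against 60.3). The neurofilament genes Nefl, Nefm and Nefh had means under the filter level. The part of nerve and Schwann cells in the values of the CaMKII genes was not tested.

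By groups, the masseter and tibialis anterior values did not overlap for 6 of the 12 member probe sets, 5 lower in the masseter (3 of Ppp3ca, Rcan1 and Camk2b) and 1 higher (Ppp3cb). Over all probe sets tested, 17.8% did not overlap, 8.63% on the lower side and 9.21% on the higher. All 3 numbered pairs agreed in sign for 7 of the 12, against 35% of all probe sets. Counting each gene once by its brightest probe set, 5 of 7 members had an estimate below 0, against 47.7% of 8316 genes, and 0 of 7 passed, against 1.37% (0.661% lower and 0.709% higher). At an unadjusted p under 0.05 stood 4 of the 7, against 13.9%. These shares describe the members that were bright enough to test, which were picked with earlier results of these data known.

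Outside the members, 43 of 63 listed genes were tested. Of these, 41 did not pass and 2 fell on the lower side, with 0 on the higher. Over all genes 1.37% passed, 0.661% on the lower side. Both that passed were slow-fibre myosin light chains from the list of downstream genes. The median difference of the 43 was -0.05, beside 0.02 for all genes. The 32 that are not downstream genes held 0 calls, 3 with a higher and 3 with a lower signal in the masseter at an unadjusted p under 0.05, and 0.02 as their median.

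Of 8 further calcineurin subunits and modulators tested, 0 passed. Ppp3r1, the regulatory subunit that calcineurin needs for activity, averaged a signal of 704 in masseter and 764 in tibialis samples (-0.12 ± 0.16, adjusted p = 0.819). Myoz1, a Z-disc protein that binds calcineurin in fast fibres, had 7420, 7008 and 8174 against 4995, 5578 and 5467. Its groups did not overlap, and the difference was 0.49 ± 0.12 with an adjusted p of 0.107. Rcan2, a paralog of Rcan1, had mean signals of 545 and 426 (0.36 ± 0.15, adjusted p = 0.359). Ppp3r1, Rcan2 and the paralogs named next were chosen after their values were seen.

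Of 8 further NFAT factors and NFAT kinases tested, 0 passed. Csnk1a1, a casein kinase that phosphorylates NFAT, had 2 probe sets with estimates of opposite sign, -0.43 ± 0.17 on the brighter and 0.53 ± 0.16 on the other (adjusted p = 0.325 and 0.203). Gsk3b, another NFAT kinase, had -0.39 ± 0.29 (adjusted p = 0.64). Nfatc2 and Nfatc3 had 0.31 ± 0.33 and -0.19 ± 0.18 on their brightest probe sets (adjusted p = 0.769 and 0.738). Their dimmer tested probe sets had the opposite sign, with -0.44 ± 0.25 and 0.07 ± 0.32 (adjusted p = 0.537 and 0.952). Of 5 further CaM kinase genes tested, 0 passed, and Camk2d, the delta subunit of CaMKII, had mean signals of 61.9 and 86.5 (-0.48 ± 0.26, adjusted p = 0.486).

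Of the calmodulin list 2 genes were tested and 0 passed. Pvalb, parvalbumin, the calcium buffer of fast fibres, had mean signals of 13386 and 15977 (-0.26 ± 0.11, adjusted p = 0.392). Pcp4l1, a small protein related to a calmodulin binder, had mean signals of 37.3 and 26.8, the latter under the filter level (adjusted p = 0.699). Among 9 tested genes of the MEF2, class II deacetylase and protein kinase D list, 0 passed. Mef2b had 52.4, 47.5 and 84.3 against 18.2, 15.9 and 31.7, with a tibialis mean under the filter level. With that level in its place the masseter mean was at least 2.08-fold higher, and limma's adjusted p was 0.119. Paired SAM called Mef2b, and that call too rests on tibialis signals of which 2 of 3 lie under the filter level. Mef2a had mean signals of 406 and 604 (-0.57 ± 0.17, adjusted p = 0.189).

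**Figure D3:**
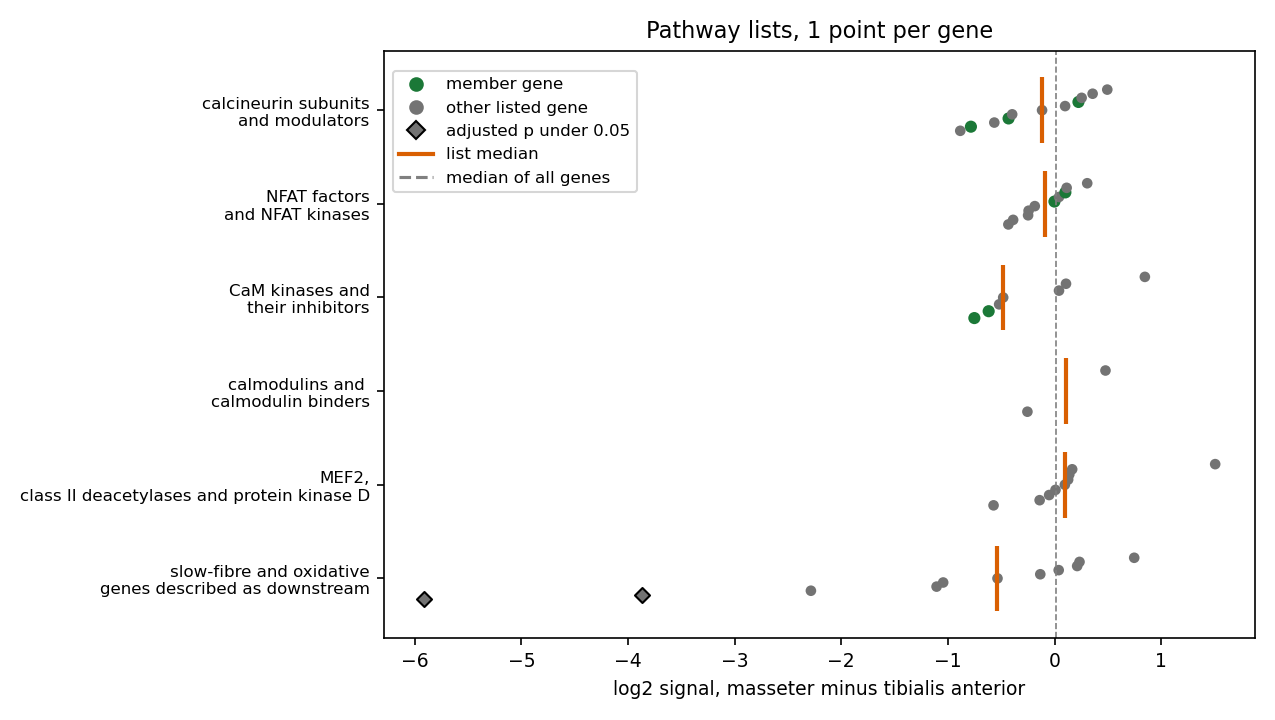
Difference in log2 signal, masseter minus tibialis anterior, for each tested gene of the 6 pathway lists by its brightest probe set. Green points are member genes, diamonds passed the threshold, orange bars are list medians and the dashed line is the median of all genes. The diamonds are Myl3 at -5.91 and Myl2, both in the list of downstream genes. Myl2, Myh7, Mef2b and 5 other genes are drawn at their fitted value although 1 muscle's mean lies under the filter level, so their positions are not measured folds.

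In the list of slow-fibre and oxidative genes described as downstream of this signalling, 2 of 11 tested genes passed with lower masseter signal, 0 passed with higher signal and 9 missed the threshold, with a median of -0.54, also with genes under the filter level set to their bounds. Over all genes 0.661% passed on the lower side. Without the replicate block Myh7 also passed, which encodes the slow myosin heavy chain (adjusted p = 0.0467, beside 0.0671 with the block). Its masseter mean of 19.9 lay under the filter level and its tibialis mean was 96.9, at least 3.38-fold higher. Myl3, the slow essential light chain, had signals of 33.6, 44.2 and 81.3 against 2422, 4269 and 2557 (-5.91 ± 0.28, adjusted p = 7.64e-05). Myl2, the slow regulatory light chain, had 31.5, 28.6 and 19.2 against 253.3, 695.5 and 304.3. Its masseter mean lay under the filter level, and with that level in its place the gene was lower by at least 13.2-fold (adjusted p = 0.00114). Both stand beside the members here as values only.

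The 3 genes outside the members whose levels followed Rcan1 most closely over the 6 arrays were Ryk, Prnp and Gabarapl1. The measure was the root mean square distance between log2 signals centred on their means, taken over the 6602 genes whose range over the arrays was at least 0.5 times that of Rcan1. The distances were 0.06, 0.07 and 0.10 log2 units. Ryk, a receptor of the tyrosine kinase family, had 103.0, 114.4 and 107.6 against 182.3, 144.3 and 210.7. Prnp, the prion protein gene, had 875.4, 874.2 and 800.8 against 1518, 1352 and 1670, and it alone of the 3 passed the threshold (-0.83 ± 0.14, adjusted p = 0.0395). All 4 genes had their lowest tibialis value in tibialis anterior 2. With 6 arrays of 2 muscles such likeness is a description.

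**Figure D4:**
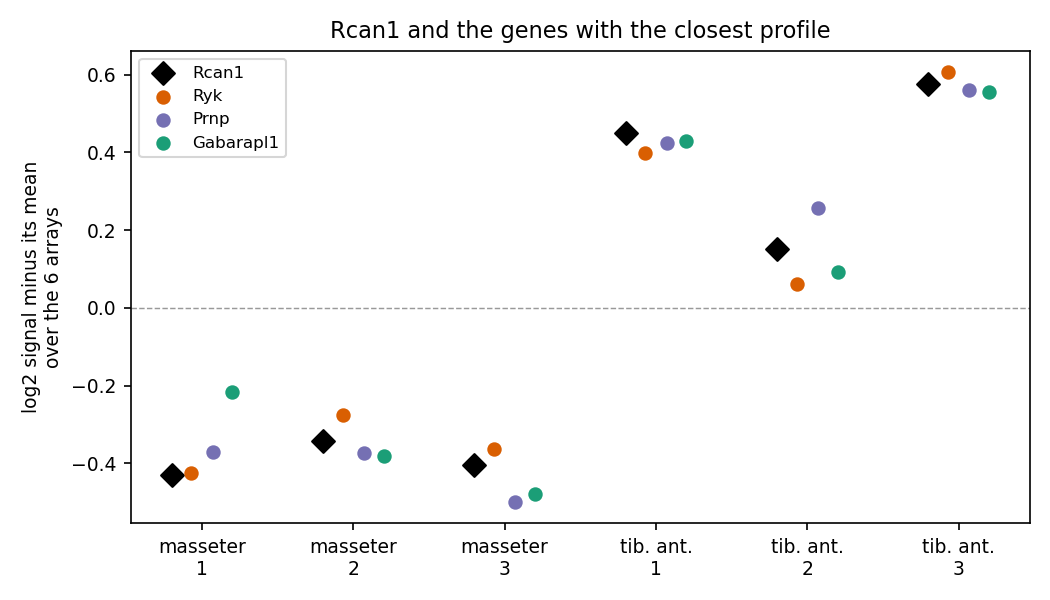
Log2 signal of Rcan1 (diamonds), Ryk, Prnp and Gabarapl1 (circles) in each array, minus the gene's own mean over the 6 arrays. All 4 genes lie below their mean in the 3 masseter arrays and above it in the 3 tibialis anterior arrays.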

How the data were processed

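The authors' deposited table gives, for each array, a linear intensity of every probe set. MAS5 and GCOS stand in the submitters' processing notes without versions or settings. Trimmed means were already equal, so no further scaling was applied. Gene names are those of the platform annotation, checked by gene identifier: 20380 had 1 symbol, 691 several and 1555 none.

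The deposited intensities, raised to 1 where lower, were converted to log2. The 64 controls and probe sets under the 40th percentile of mean log2 signal were left out. The fit was limma 3.58.1 in R 4.3.3 (lmFit, eBayes with intensity trend), two-sided. The replicate number entered as a fixed block, since paired comparisons are what the series' design text describes. The procedure was also run on simulated data. The changes simulated were larger than any member estimate of the main fit, so that run does not gauge the power for differences of their size. The number of arrays limits precision.

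Members and lists were chosen with earlier results of these data known. All members were named, with pathway genes past the threshold, otherwise the 2 of a list with the smallest unadjusted p, and the 3 profiles closest to the member with the smallest p. Alternatives covered the block, trend, filter, scaling, offset, SAM, gene means and left-out arrays.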

Additional observations from a re-analysis of the deposited data

How the results depend on the processing

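Of the 12 tested member probe sets, 0 passed under each alternative listed in the processing summary on probe sets, and 1 passed (Rcan1) in the fit on the mean over the probe sets of a gene, which was added after seeing the data and covers 8316 genes in place of 13576 probe sets. The count over all probe sets was 160. It was 138 with no replicate block, 13 with eBayes without trend and 65 with paired SAM. Leaving out both arrays of a replicate number gave 119 to 173, and leaving out 1 array, without the block, 45 to 75. The count of pathway genes was 2 and became 3 with no replicate block, 3 with paired SAM, 1 with eBayes without trend, 4 with gene means and 2 to 4 with arrays left out, where Myh7, Tnnc1 and Myoz2 were the genes added. The block changed no call of a member. Deviations of same-numbered arrays from their group means correlated at 0.04, 0.15 and 0.10 over probe sets, and not every array correlated best with its own number, so the numbers are not shown to pair the samples.

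The sign changed in some settings for Nfatc1 (1417621_at), Nfatc4 and Ppp3cb (1427468_at), with main estimates of 0.00, 0.10 and 0.22. The estimates of changed sign ran from -0.07 to 0.11. Nfatc1 (1417621_at) moved from 0.00 to between -0.11 and 0.11 with arrays left out, with values of 0.03 without replicate 1, 0.08 without replicate 2, 0.08 without masseter 2 and 0.11 without tibialis anterior 1. Nfatc4 ran from -0.07 (-0.068, without tibialis anterior 2) to 0.34 (without tibialis anterior 1), with -0.04 without replicate 2 and -0.0017 without masseter 1. Ppp3cb (1427468_at) ran from -0.026 (without replicate 2) to 0.63 (without replicate 3). Of the other estimates under alternatives, 185 kept their sign and their side of the threshold. The causes were not tested.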

Other observations

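Ppargc1a, a coactivator of mitochondrial and oxidative genes that calcineurin and CaMK signalling are known to influence, was read by 5 tested probe sets. It was chosen after its values were seen. All 5 had higher mean signal in the masseter, with estimates from 0.40 to 0.93 log2 units, and 0 passed (limma adjusted p from 0.0943 to 0.382). They read 1 gene and are not separate evidence. In the same list Myl3 and Myl2 had lower signal in the masseter.

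Myoz2, the calcineurin-binding Z-disc protein of slow fibres, had signals of 769.7, 1209 and 746.9 in masseter 1, 2 and 3 and of 840.6, 2137 and 2437 in tibialis anterior 1, 2 and 3. Tibialis anterior 1 fell within the masseter range, and the difference was -0.88 ± 0.26 (limma adjusted p = 0.189). With both arrays of replicate 1 left out it passed (-1.26, limma adjusted p = 0.0229). It also passed with only tibialis anterior 1 left out, without the block (-1.37, limma adjusted p = 0.0471). Both settings drop the tibialis array that fell within the masseter range, and Myoz2 passed in no other setting. This gene was also chosen after its values were seen.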
